A study of Mus musculus with 6 samples.

Results

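The host genes Pum2, Piwil1, Ankrd11 and Kdm4d, whose proteins act on RNA or on chromatin, give rise to 5 circular RNAs (circRNAs) described here, each read by 1 of the 14236 circRNA probes on a mouse array. Host names were read for only a part of those probes, so further circRNAs of these hosts on the array were not analysed here. Of the 5 circRNAs, 4 were chosen by the fold change and p of this same comparison, as circRNAs among the top 10 with a higher or a lower signal in the hippocampus after tibial fracture surgery. They are mmu_circRNA_19057 (Pum2), mmu_circRNA_43782 (Kdm4d), mmu_circRNA_39436 (Piwil1) and mmu_circRNA_011181 (Ankrd11). The other circRNA, mmu_circRNA_43583, is a further product of Ankrd11 that was taken by its host symbol. The surgery-control values of the 4 chosen circRNAs are therefore a description with no test. The direction of mmu_circRNA_43583 was also favoured, though not fixed, by its source, a list that held circRNAs with a higher mean after surgery.

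The study looked for circRNAs that change in the aged brain in a model of postoperative delirium. RNA came from the hippocampus of male C57BL/6J mice aged 12 months, taken 72 h after the procedure, with 1 mouse per array and 3 mice per group. The surgery group had a fracture of the left tibia fixed with an intramedullary nail, under isoflurane and subcutaneous butorphenol (as the labels spell it). The control group received the same isoflurane and butorphenol without the operation. By the study's methods all mice had gone through behavioral tests, and the mice for the arrays were drawn from those in which the model was judged a success. The RNA was digested with RNase R, an enzyme that removes linear RNA, before Cy3 labelling and hybridisation. The array files gave no gene name to probes for linear RNA, so neither the markers of hippocampal cells nor the linear transcripts of the 4 hosts were checked here. In bulk tissue, fewer cells of a type and less RNA per cell cannot be told apart.

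A circRNA forms when a downstream splice donor is joined to an upstream acceptor, a reaction called back-splicing, and the closed loop resists exonucleases. Neurons are rich in such loops. PUM2 is a Pumilio protein that binds messenger RNAs and represses their translation, and PIWIL1 is a PIWI protein of the piRNA pathway, known mainly from the germline. ANKRD11 is a chromatin coregulator that recruits histone deacetylases, and KDM4D removes methyl groups from lysine 9 of histone H3. A circRNA carries sequence of its host gene but its level is not the level of the host's protein or messenger RNA.

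The probes are the sequences on which each value rests, and they were given for the intronic Kdm4d circRNA and for the Ankrd11 circRNA whose groups overlapped. Capitals mark the longest unbroken run of C and T in each 60-base probe.
Kdm4d mmu_circRNA_43782: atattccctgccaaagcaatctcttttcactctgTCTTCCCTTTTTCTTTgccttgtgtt
Ankrd11 mmu_circRNA_43583: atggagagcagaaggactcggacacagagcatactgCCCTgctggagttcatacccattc

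The run in the Kdm4d probe was 16 bases long, longer than in 99.8% of the 1257 probes whose sequences were read, and the run in the Ankrd11 probe was 4 bases long. The median run was 5 bases and the longest was 18. T made up 46.7% of the Kdm4d probe, a higher share than in 99.9% of the 1257 probes, and its GC content was 40%. The Ankrd11 probe held 53.3% GC and 18.3% T. The Kdm4d circRNA was placed at chr9:14478015-14485692 on the minus strand, a span of 7677 bases assigned to an intron of ENSMUST00000058796. The Ankrd11 circRNA spanned 66125 bases at chr8:122908667-122974792 on the minus strand and was assigned to exons of NR_037865. The list does not state its build or whether its starts count from 0 or 1, and a span here is the end minus the start. The array headers name mm9, but the coordinates fitted the mouse build GRCm38, since 991 of 994 exonic circRNAs of the same list (99.7%) lay inside their host gene there.

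The other members were given by type and transcript. The Pum2 circRNA was of the sense overlapping type, which overlaps its host, NM_030723, on the same strand. The Piwil1 circRNA was exonic (NM_021311), as was mmu_circRNA_011181 of Ankrd11 (NR_037865). In GRCm38.p6 the host genes lie at chr12:8674092-8752583 for Pum2, chr5:128736071-128755474 for Piwil1, chr8:122883321-123042284 for Ankrd11 and chr9:14462548-14500522 for Kdm4d. Of the 1257 listed circRNAs, 81.9% were exonic, 12% sense overlapping and 3.58% intronic.

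Values are median spot intensities, quantile normalized over the 6 arrays and then taken to log2. Between 9257 (control 1) and 13009 (surgery 2) of the circRNA probes were well above background on an array, and no circRNA spot was saturated. Testing was limited to probes that the software marked above background on 3 or more arrays, which left 12499 probes (87.8%), including all 5 circRNAs described here. Called means that limma gave a fold change of 1.3 or more and an unadjusted p no higher than 0.05, and 766 of 12499 probes (6.13%) were called. Of these, 524 were higher (4.19%) and 242 lower (1.94%) after surgery. Only 6 probes (0.0480%) had an adjusted p under 0.05, while 2586 (20.7%) had an unadjusted p under 0.05. Without control 1, 1189 probes were called and 77 had an adjusted p under 0.05, and without any other single array that count was 0. The groups did not overlap for 3176 probes (25.4%), of which 1681 (13.4%) were higher and 1495 (12.0%) lower. Each group held 3 arrays, and this number limits the precision of every value. The 4 chosen circRNAs were all called and did not overlap between groups, which the choice itself favours, so nothing is read from these counts.

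The Pum2 circRNA had a higher signal in every surgery mouse than in any control mouse. Its log2 intensities were 7.17, 7.59 and 7.87 in surgery mice 1 to 3 and 6.93, 6.53 and 6.50 in control mice 1 to 3. Surgery 1 was the lowest of its group and control 1 the highest of its own, and 0.24 separated them. The means were 7.55 ± 0.35 (SD, n = 3) after surgery and 6.65 ± 0.24 (SD, n = 3) in controls, a difference of 0.89 (SE 0.18) or 1.86-fold.
The groups were also separate before normalization, which the choice by these same spots favours. Their median signals were 136, 228 and 261 after surgery and 112.5, 81 and 103 in controls. The Pum2 spot was brighter than 100% of the 150 negative-control spots on each surgery array, and than 100%, 98.7% and 93.3% in controls 1 to 3. Signal was 11.3, 17.5 and 20.1 times the local background after surgery and 9.38, 6.23 and 8.58 times in controls. All 6 spots were well above background, and the local background at this place on the array did not separate the groups (12.7 ± 0.58 after surgery, 12.3 ± 0.58 in controls; exact permutation p = 1, two-sided, smallest possible 0.1).

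The Piwil1 circRNA was lower after surgery. Its log2 intensities were 6.01, 6.04 and 6.24 after surgery and 6.80, 7.06 and 6.57 in controls. The surgery mice lay close together, and the highest of them was 0.33 below the lowest control. The means were 6.10 ± 0.12 (SD, n = 3) and 6.81 ± 0.24 (SD, n = 3), a difference of -0.71 (SE 0.13), or 1.64-fold lower after surgery. Without any normalization the median signals of the same spots were 57, 66.5 and 78 after surgery and 103, 116 and 107 in controls. These did not overlap either, which the choice also favours. After the background subtraction of the scanner software, with signals scaled between arrays, the difference was -1.12 to -0.99, so its size depended on the signal used. Of 150 negative-control spots, 87.3%, 92% and 94% were dimmer than the Piwil1 spot in the surgery mice and 100%, 100% and 94.7% in controls 1 to 3. The surgery values thus lay in the upper part of the range of spots that should bind nothing, although the software marked all 6 as well above background. The median of the negative controls was itself 0.17 log2 units lower after surgery, in the direction of the Piwil1 difference, and its part in that difference was not tested.

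The Ankrd11 circRNA mmu_circRNA_011181 was also lower after surgery, and the control mice differed widely among themselves. Its log2 intensities were 7.02, 7.14 and 7.07 after surgery and 7.34, 7.97 and 8.08 in controls. The surgery mice spanned 0.13, the controls spanned 0.73, and control 1 lay only 0.20 above the highest surgery mouse. The means were 7.08 ± 0.06 (SD, n = 3) and 7.80 ± 0.40 (SD, n = 3), a difference of -0.72 (SE 0.17), or 1.65-fold lower. Before normalization the groups overlapped, with median signals of 121, 163 and 144.5 after surgery and 145.5, 224.5 and 264.5 in controls. In those values control 1 lay below surgery 2, and the log2 difference was -0.53.

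The other Ankrd11 circRNA, mmu_circRNA_43583, had nearly the same signal on all arrays, and a dim one. Between 76.7% (control 3) and 97.3% (surgery 2) of the negative-control spots on an array were dimmer. Its log2 intensities were 6.06, 6.14 and 6.10 after surgery and 6.09, 6.11 and 5.99 in controls. All 6 mice lay within a narrow band and the groups overlapped. The means were 6.10 ± 0.04 (SD, n = 3) and 6.06 ± 0.06 (SD, n = 3), a difference of 0.04 (SE 0.09), or 1.03-fold, and its sign turned under 6 of the 22 alternatives tried.

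The Kdm4d circRNA was higher after surgery, but its groups barely separated and its control spots were near the floor of the array. Its log2 intensities were 5.55, 6.12 and 5.97 after surgery and 5.22, 5.55 and 4.95 in controls. Surgery 1 and control 2 were practically equal, 0.0051 apart, and only surgery 2 and surgery 3 stood clear of all controls. The means were 5.88 ± 0.29 (SD, n = 3) and 5.24 ± 0.30 (SD, n = 3), a difference of 0.64 (SE 0.17). As the next readouts show, only 1 of the 3 control values was measured above background, and the probe entered the tested set through its surgery spots, so this and every other Kdm4d difference given here is uncertain in size.
The software marked the spot above background in 3 of 3 surgery mice but in 1 of 3 controls, control 2. Median signals were 41, 70.5 and 64 after surgery and 37, 42 and 38 in controls, so surgery 1 lay below control 2 and the groups overlapped. After the background subtraction of the scanner software, signals of 16.3, 44.4 and 38.3 stood against 7.22, 18.3 and 5.39. The error that the software gave for controls 1 and 3 was 53.7% and 59% of the signal. On those signals, scaled between arrays, the difference was 1.53 to 1.65 instead of 0.64, so its size depended on which signal was used.
The negative-control spots were compared with it. Of 150 such spots, 69.3%, 97.3% and 86% were dimmer than the Kdm4d spot after surgery, and 44.7%, 65.3% and 17.3% in controls. The median of the negative controls itself was lower after surgery (5.14 ± 0.09, n = 3) than in controls (5.32 ± 0.04, n = 3), a difference of -0.17 with an exact permutation p of 0.1, the smallest that 3 against 3 arrays can give. The local background around the Kdm4d spot was 12 ± 0.5 after surgery and 14 ± 1 in controls, again without overlap (exact permutation p = 0.1, two-sided). The part of either in the Kdm4d difference was not tested.

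**Figure D1:**
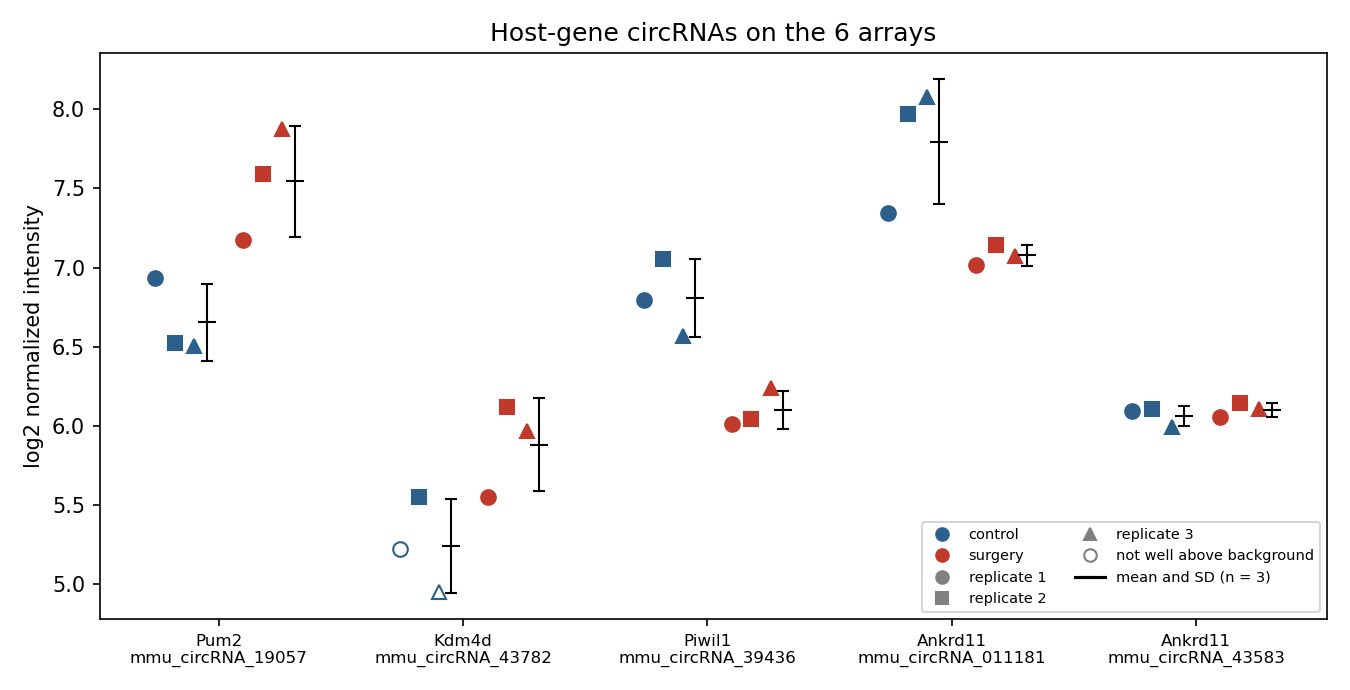
Log2 normalized intensity of the 5 circRNAs on each of the 6 arrays, by group (colour) and replicate (shape), with open symbols for spots not well above background and bars for the mean and SD of 3 mice. Surgery and control separate by 0.24 for Pum2 and by 0.33 for Piwil1, and the groups overlap for mmu_circRNA_43583 of Ankrd11.

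**Figure D2:**
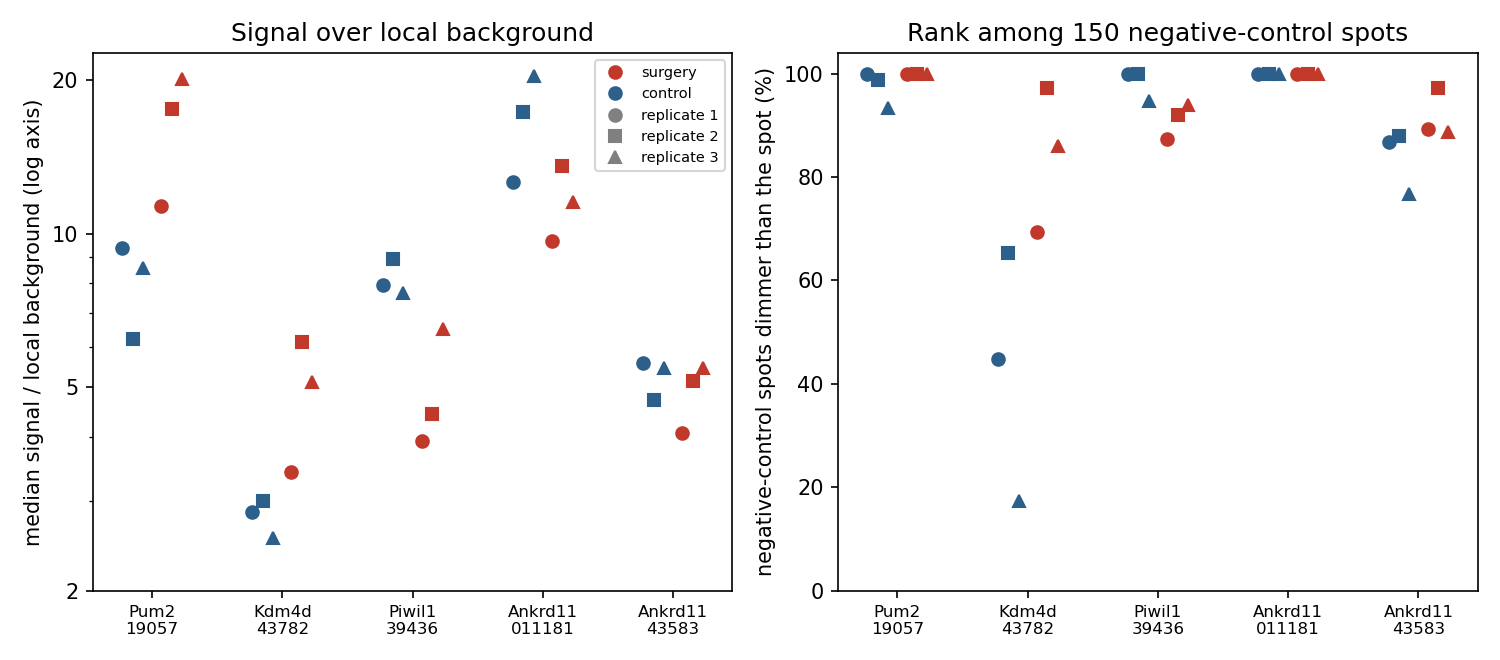
Left, median signal divided by local background on a log axis for each spot and array; right, the share of 150 negative-control spots on the same array that were dimmer. The Kdm4d spots in controls 1 and 3 were brighter than 44.7% and 17.3% of the negative controls, while mmu_circRNA_011181 of Ankrd11 was brighter than 100% of them on every array.

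Pooled over both groups, the SD of the 4 chosen circRNAs was above that of most tested probes of a similar level. These SDs come from the values by which the 4 were chosen, and a choice by fold change can itself favour a wide spread. Nothing is therefore read from their place among other probes. The controls spread more than the surgery mice for Piwil1 and mmu_circRNA_011181, less for Pum2 and about equally for Kdm4d. The SDs in controls and after surgery were 0.24 and 0.12 for Piwil1 and 0.40 and 0.06 for mmu_circRNA_011181. The SD within groups was 0.30 for Pum2, 0.30 for Kdm4d, 0.19 for Piwil1 and 0.28 for mmu_circRNA_011181 of Ankrd11. Among tested probes within 0.5 log2 units of the same mean level, these SDs stood at the 94.4th percentile of 2091 probes for Pum2 and the 98.5th of 6623 for Kdm4d. They stood at the 83.3rd percentile of 4219 probes for Piwil1 and the 90.5th of 1409 for Ankrd11. The SD of mmu_circRNA_43583, which was not chosen by fold change, was 0.05, at the 5.41st percentile of 5955 probes. Only 1 of the 3 Kdm4d control spots was above background, so no spread between mice is read from the Kdm4d SD.
Spots repeated on 1 array give the spread between spots within an array. For 94 probes printed 10 times, those with a level near each circRNA had a median SD on an array of 0.05 to 0.11 for Pum2, 0.08 to 0.11 for Kdm4d, 0.06 to 0.11 for Piwil1 and 0.04 to 0.16 for mmu_circRNA_011181 over the 6 arrays. At the level of Pum2 and mmu_circRNA_011181 only 1 repeated probe was near on some arrays. The SD between mice also holds the differences between arrays in labelling and hybridisation, which repeated spots do not show. In surgery mice the SD of Piwil1 (0.12) and of mmu_circRNA_011181 (0.06) lay close to or within that of repeated spots, and the other SDs of the 4 circRNAs were larger.

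**Figure D3:**
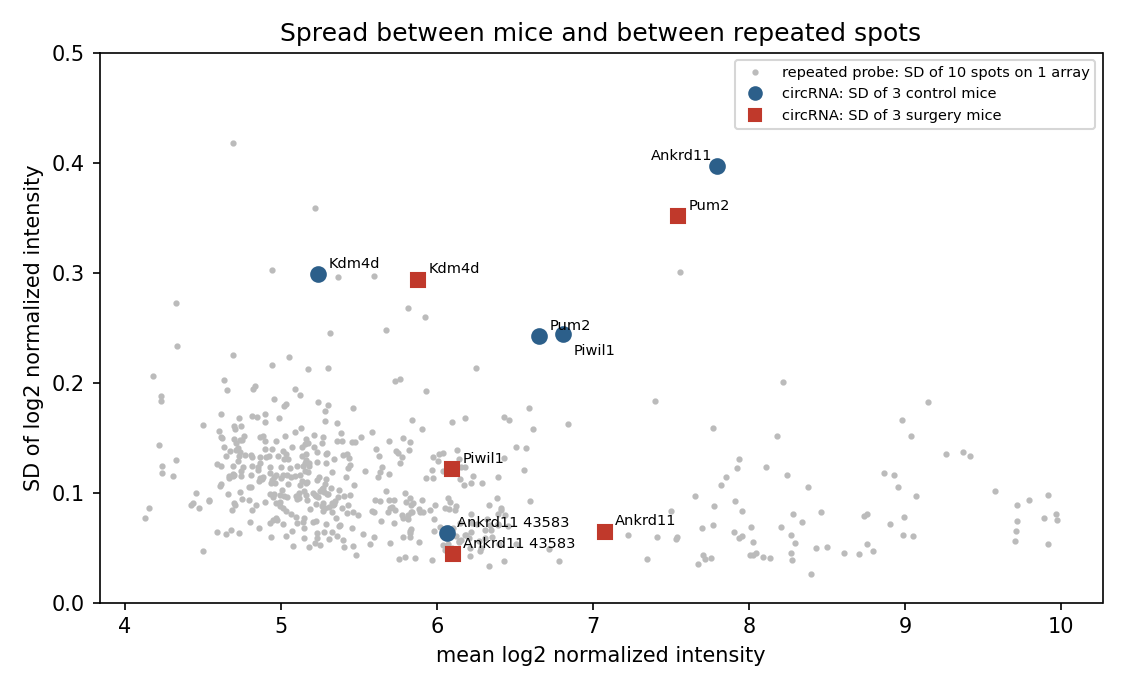
SD against mean of log2 normalized intensity, for repeated probes (grey, SD of 10 spots on 1 array, shown up to a mean of 10) and for the 5 circRNAs (SD of 3 mice in each group). The largest SD between mice was 0.40, in the controls for mmu_circRNA_011181 of Ankrd11, and both groups of mmu_circRNA_43583 lie among the repeated spots.

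An array field in the file headers ends in 2 numbers, read here as the row and column of the array on its slide. The headers do not state what they mark, and the first number could stand for the slide itself. Both numbers moved with the groups. Surgery 1 and the 3 controls had row 1, and surgery 2 and surgery 3 had row 2. Surgery mice 1 to 3 had columns 1, 1 and 2, and controls 1 to 3 had columns 2, 3 and 4. With the column as a covariate the difference of mmu_circRNA_011181 was -0.26, against -0.72 without it. Within row 1, the Pum2 difference was 0.52 and the Kdm4d difference 0.31, against 0.89 and 0.64 over all arrays. For Piwil1 it was -0.79 and for mmu_circRNA_011181 of Ankrd11 -0.78, at least as large as over all arrays. Within column 2, which held surgery 3 and control 1, the differences were 0.94 for Pum2, 0.75 for Kdm4d, -0.56 for Piwil1 and -0.27 for mmu_circRNA_011181. Row 1 had only 1 surgery array and column 2 only 1 array of each group, so these are values with no test. With groups that do not overlap, the signs within row 1 and within column 2 could not turn. This does not hold for the fit with the column as a covariate. The part of what these numbers mark in the sizes was not tested.

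**Figure D4:**
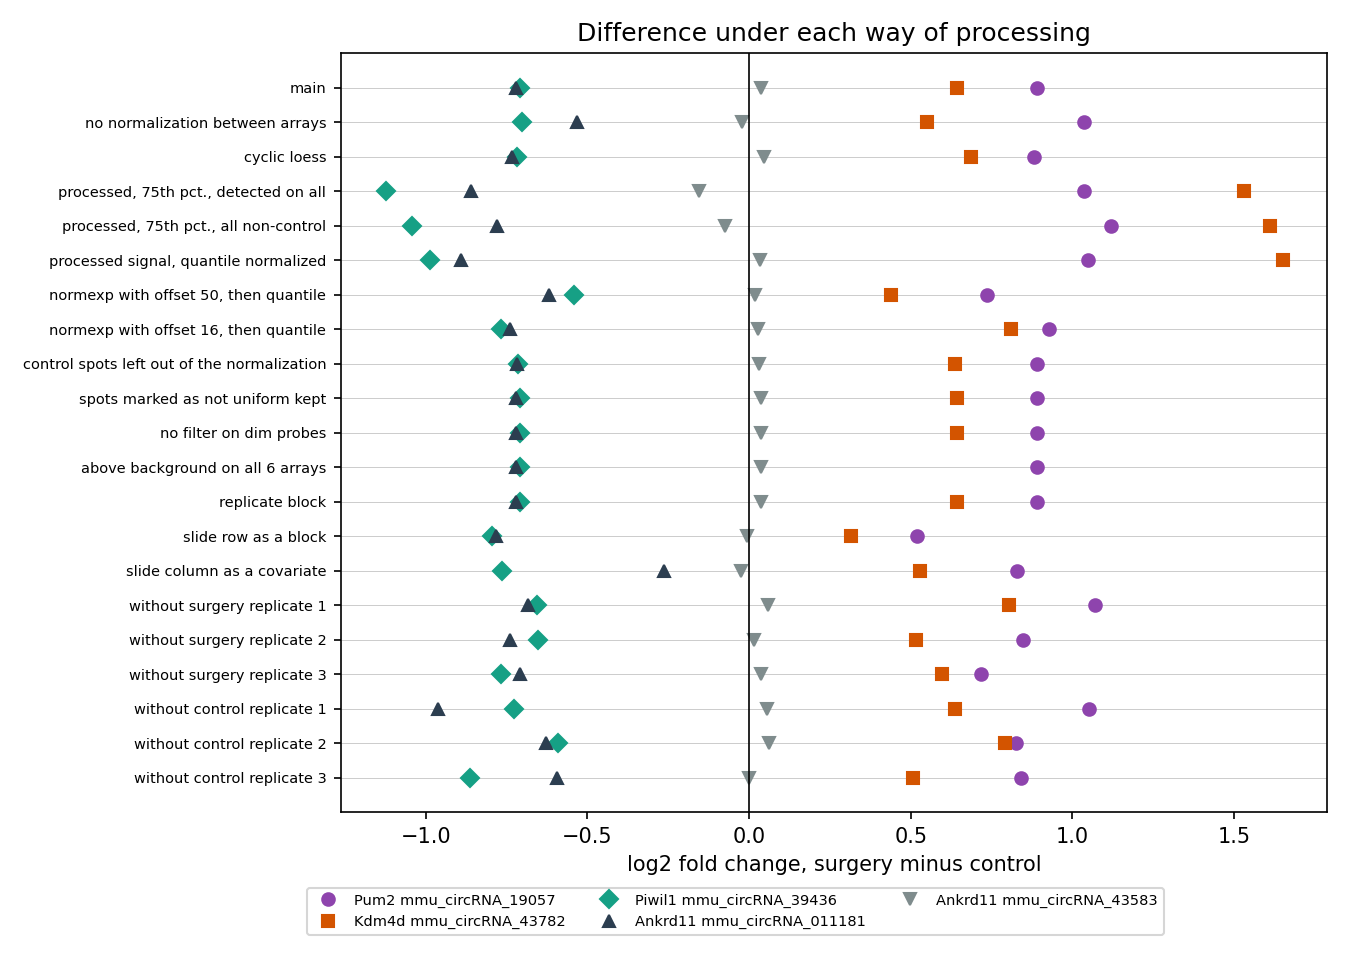
Log2 fold change (surgery minus control) of each circRNA under the chosen processing and under the alternatives, 1 line each; the 2 alternatives that changed only the test are not drawn, and Kdm4d has no point where a probe had to be above background on all 6 arrays. Pum2 and Kdm4d stayed above 0 and Piwil1 and mmu_circRNA_011181 below 0 on every line, while mmu_circRNA_43583 lay near 0 on both sides.

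The rank by which the 4 circRNAs were chosen put Kdm4d close to its limit. With background correction by normexp and an offset of 16, Kdm4d stood at place 9 among higher circRNAs with a log2 fold change of 0.8116, set against controls of which 1 of 3 was above background. The circRNA of Fgd4 (mmu_circRNA_29342) at place 10 had 0.8083 and that of Csmd3 (mmu_circRNA_28581) just outside, at place 11, had 0.8073. Pum2 stood at place 4, Piwil1 at place 2 and Ankrd11 at place 3 of their directions. The lower probes around the limit had -0.65 at place 9, -0.64 at place 10 and -0.62 at place 11. These places are among 500 higher and 187 lower calls, the numbers that the study printed, and not among the limma calls counted above. Ranked by fold change in their direction over all 12499 tested probes, Kdm4d stood at place 13 with that correction and at place 37 without it, as used for the values above. Pum2 stood at place 5 with it and 3 without it, Piwil1 at 11 in both and mmu_circRNA_011181 at 14 and 10.

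Other circRNAs of RNA regulators and of chromatin regulators were found by host symbol among the 1257 listed circRNAs, all of which came from a list with a higher mean after surgery, so no direction is read from them. For RNA regulators there were 36 circRNAs of 31 host genes, and 3 of them (8.33%) were called higher. Over all 1257 listed circRNAs, 107 (8.51%) were called higher, so the share was near the background. The called circRNAs were those of Taf15, Strbp and Rbfox2, hosts of an RNA-binding protein of the FET family, a spermatid RNA-binding protein and a splicing regulator. Their log2 differences were 0.48 (SE 0.18, adjusted p = 0.184), 0.45 (SE 0.17, adjusted p = 0.188) and 0.41 (SE 0.11, adjusted p = 0.1 in limma with Benjamini-Hochberg adjustment over all tested probes). None of the 36 had an adjusted p under 0.05. The count moved with single arrays, as did that of all listed circRNAs. Without surgery 2 it was 0 of 35, beside 6.80% of all listed circRNAs tested, and without control 1 it was 6 of 36 (16.7%), beside 12.7%.
For the 3 called RNA regulator circRNAs the arrays themselves were as follows. The Taf15 circRNA had 6.51, 6.95 and 6.50 after surgery and 6.29, 6.47 and 5.77 in controls, so surgery 3 lay just above control 2. The Strbp circRNA had 5.91, 6.71 and 6.16 after surgery and 5.89, 5.86 and 5.69 in controls, again close to touching. The Rbfox2 circRNA had 5.86, 6.16 and 6.16 after surgery and 5.55, 5.75 and 5.65 in controls, and was well above background on 3 surgery arrays and 2 control arrays. The 95th percentile of the negative-control spots was 6.26, 6.32 and 6.56 in controls 1 to 3. Every control value of Strbp and Rbfox2 lay below it, as did control 3 of Taf15. The part of dim control spots in these differences was not tested.

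The chromatin regulators gave 54 circRNAs of 43 host genes, and 1 (1.85%) was called higher, that of Rcor3, a corepressor of the REST and CoREST family. Its log2 intensities were 7.12, 6.88 and 6.91 after surgery and 6.69, 6.47 and 6.43 in controls, with no overlap. The difference was 0.44 (SE 0.11, adjusted p = 0.0872 in limma). With 1 array left out, 2 to 7 chromatin regulator circRNAs were called. The shares, each beside that of all listed circRNAs, were 7.69% and 11.7% without surgery 1. Without surgery 2 they were 2 of 50 and 81 of 1192, and without surgery 3 they were 7 of 50 and 131 of 1192. They were 9.26% and 12.7% without control 1, 7.69% and 11.1% without control 2, and 3.70% and 8.32% without control 3. Nothing particular to chromatin regulators is read from them. Of the tested circRNAs, 1 RNA regulator, 2 chromatin regulators and 33 of all listed were above background on no control array. The groups did not overlap for 12 of the 36 RNA regulator circRNAs (33.3%) and 12 of the 54 chromatin regulator circRNAs (22.2%), against 358 of all 1257 (28.5%). The median log2 difference was 0.14 for RNA regulators and 0.13 for chromatin regulators, beside 0.14 for all 1257. Their ranges, 0.01 to 0.48 and -0.02 to 0.44, did not reach the values of Pum2 and Kdm4d, which were chosen for their size.
Of the listed chromatin regulator circRNAs, 10 came from other histone demethylase genes, named here for that function and after their values were seen. For mmu_circRNA_22153 of Jmjd1c no difference is given, since it was well above background on 0 of 3 control arrays. The other Jmjd1c circRNAs differed by 0.23 (SE 0.10, no overlap) and 0.20 (SE 0.10). The Phf8 circRNA differed by 0.14 (SE 0.09) and that of Kdm5b by 0.11 (SE 0.18), each well above background on 2 of 3 control arrays. Those of Kdm4b and Kdm3a both differed by 0.01 (SE 0.11 and 0.08), that of Kdm5a by 0.00 (SE 0.10), that of Kdm5d by -0.0013 (SE 0.11) and that of Kdm3b by -0.02 (SE 0.10). The group means of Phf8, Kdm5b, Kdm5a, Kdm5d and Kdm3b were dim, at 5.26 to 5.85. They lay below the 95th percentile of the negative-control spots on every array (6.08 to 6.56). A small difference at such dim spots does not show that a circRNA was unchanged. None of the 10 was called, beside 8.51% of all listed circRNAs, so nothing is read from this count.

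The probes of the 4 called list circRNAs are shown because they are the circRNAs of these families that were called, with capitals as above. Where runs of the same length tied, as in Rcor3 and Rbfox2, the first is marked.
Rcor3 mmu_circRNA_21570: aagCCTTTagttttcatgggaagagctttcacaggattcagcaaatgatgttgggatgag
Taf15 mmu_circRNA_23885: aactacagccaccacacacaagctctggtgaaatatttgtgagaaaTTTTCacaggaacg
Strbp mmu_circRNA_19242: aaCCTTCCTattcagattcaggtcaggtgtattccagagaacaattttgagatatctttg
Rbfox2 mmu_circRNA_28797: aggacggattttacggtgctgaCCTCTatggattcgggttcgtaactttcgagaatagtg

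Their longest C and T runs were 5, 5, 7 and 5 bases, and their T content was 30%, 21.7%, 35% and 31.7%, below the 16 bases and 46.7% of the Kdm4d probe. The Rcor3 circRNA lay at chr1:192125865-192137489 and that of Taf15 at chr11:83484288-83487413. The Strbp circRNA lay at chr2:37640848-37647288 and that of Rbfox2 at chr15:77094450-77105669.

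**Figure D5:**
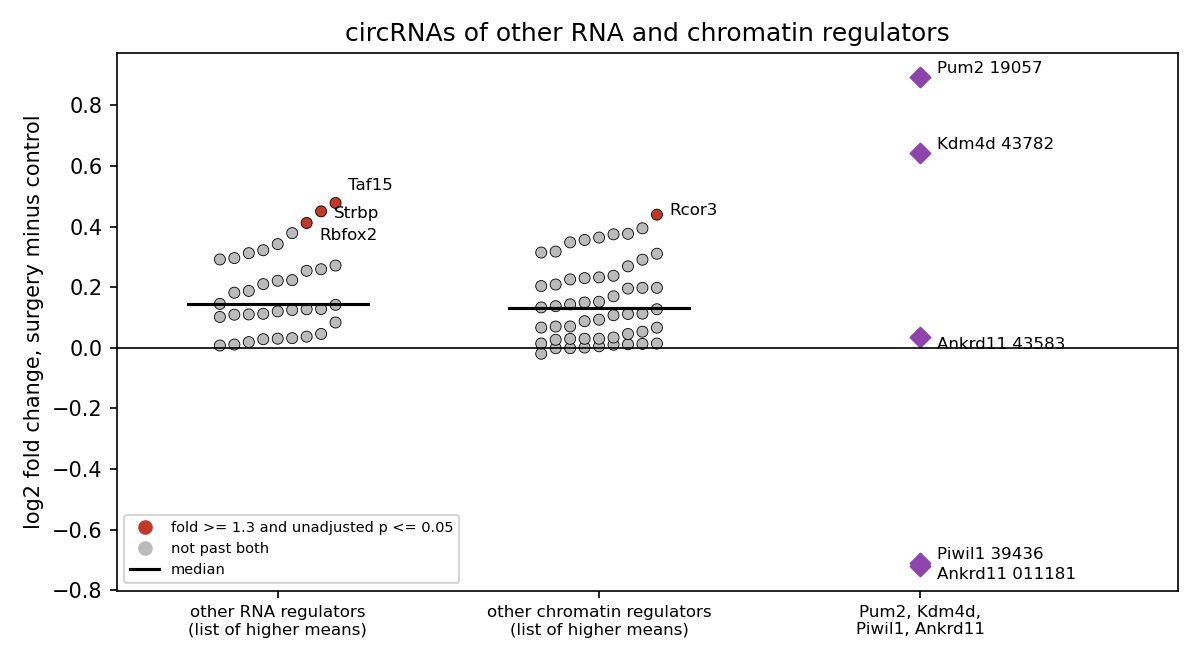
Log2 fold change (surgery minus control) of each listed circRNA of other RNA regulators (36) and other chromatin regulators (54), beside the 5 circRNAs described; red marks called circRNAs and the line is the median. The called ones reach 0.48 (Taf15), and the medians are 0.14 and 0.13.

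The profiles over the 6 arrays, each centred on its mean, were compared with those of 1255 named circRNAs and 12480 tested probes by the root mean square difference. Closest to Pum2 was the circRNA of Fgd4, a guanine nucleotide exchange factor, at 0.12, and it was also the closest of all 12480 probes. The next named circRNA was that of Mbtps2, a membrane protease, at 0.15. Among named circRNAs, those of Ubac2 and Zfat were closest to Kdm4d, both at 0.14. Of all tested probes, 12 were as close to Kdm4d as Ubac2 or closer, and the nearest was at 0.05. Only 1 of the 3 Kdm4d control values was above background, so nothing is read from this likeness. For Piwil1 the nearest named circRNA was that of Arhgap5 at 0.29 and then Mcf2 at 0.35, but 822 and 2971 of the tested probes were as close or closer, and the nearest was at 0.11. For mmu_circRNA_011181 it was that of Tmem161b at 0.26 and then Cfap69 at 0.36, but 145 and 2108 were as close or closer, and the nearest was at 0.06. These named circRNAs were therefore not particularly like Piwil1 or mmu_circRNA_011181. The named list held circRNAs with a higher mean after surgery. The circRNAs of Dopey1 and Farsb lay nearest to mmu_circRNA_43583, both at 0.02. A profile centred on the mean of all 6 arrays is led by the surgery-control difference, by which 4 of the circRNAs were chosen. Their likeness to each other is therefore not given, and the closeness of other circRNAs to these 4 can reflect that difference alone.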

How the data were processed

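The authors hybridised RNase R digested, Cy3 labelled RNA of 6 mice to one-colour Arraystar circRNA arrays of 15712 spots, 1 mouse per array. The deposited files are Agilent Feature Extraction 11.0.1.1 output, with the median signal, local background and processed signal of each spot as intensity, and 0 or 1 marks set by the software. Median signals were quantile normalized over all spots and then taken to log2, and spots marked as not uniform were left out (14 of the tested probes' spots). limma 3.58.1 (R 4.3.3; lmFit and eBayes, Benjamini-Hochberg over 12499 probes) compared 3 surgery with 3 control arrays. The fit was tested on simulated data. Single values were compared by exact permutation over the 10 splits of the arrays.

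The members and lists were chosen with earlier results of these data known. The probes of Pum2, Piwil1 and mmu_circRNA_011181 are those of the rule, and exactly 1 probe each matched the study's printed fold change and p after normexp with an offset of 16 (fold within 1e-04, p within 0.1%). The match served identification only. The study's supplementary list was held in part (1257 circRNAs with a higher mean), gave names, coordinates, types and probe sequences, and its comparison values were not used. The list of lower means was not used here. Named were the members, the 2 listed circRNAs most like each, the called circRNAs of each list and the probes at the limit of the top 10. The listed circRNAs of other histone demethylase genes were also named, after their values were seen. Host gene positions came from RefSeq (GRCm38.p6), and the build of the listed coordinates was checked against it. The alternatives changed the test, normalization, signal, background, spots, filter, replicate block, slide position and arrays. Figures were drawn with matplotlib 3.10.9.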

Additional observations from a re-analysis of the deposited data

How the results depend on the processing

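No alternative turned the sign of the log2 differences of Pum2, Kdm4d, Piwil1 or mmu_circRNA_011181. This is no sign of stability: another test, filter or the replicate block leaves a difference as it is, and leaving out 1 array can hardly turn one between groups that do not overlap. Kdm4d gave no value where a probe had to be well above background on all 6 arrays. Leaving out 1 array gave 0.72 to 1.07 for Pum2, 0.51 to 0.81 for Kdm4d, -0.86 to -0.59 for Piwil1, -0.96 to -0.59 for mmu_circRNA_011181 and -0.0012 to 0.06 for mmu_circRNA_43583. The processed signal, scaled to its 75th percentile over probes detected on all arrays, scaled over all non-control spots or quantile normalized, gave 1.53, 1.61 and 1.65 for Kdm4d and -1.12, -1.04 and -0.99 for Piwil1. The first 2 of these gave -0.16 and -0.0747 for mmu_circRNA_43583, no normalization gave -0.0212 and the slide column as a covariate -0.025. That covariate gave -0.26 for mmu_circRNA_011181, and the slide row as a block gave 0.52 for Pum2 and 0.31 for Kdm4d. The cause of these shifts was not tested.

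The count of called probes (766; 524 higher, 242 lower) was 1334 with no normalization, 3181 (750 higher, 2431 lower), 2857 (1097 higher, 1760 lower) and 2398 (1334 higher, 1064 lower) on the processed signal in the order above, 274 with normexp at an offset of 50, 1219 with the slide row as a block and 570 to 1189 with 1 array left out. The first processed scaling moved the median of all tested probes to -0.15. The count with an adjusted p under 0.05 (6) was 0 in the methods' t-test, 153 with an intensity trend, 157 with no normalization, 13 with cyclic loess, 1, 13 and 84 on the processed signal, 0 and 59 with normexp at offsets of 50 and 16, 10 without control spots, 10 without a filter, 0 with the filter on all arrays, 0 with slide row or column and 0 to 77 with 1 array left out. At an unadjusted p under 0.05 in limma the count was 2586.

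The list counts were recomputed under these alternatives after the data were seen. Each is given beside the share called higher of all 1257 listed circRNAs, which moved too. For the RNA regulators (3 of 36) and the chromatin regulators (1 of 54) they were 1 (2.78%) and 1 (1.85%) in the methods' t-test, beside 7.32%, 7 (19.4%) and 8 (14.8%) with no normalization, beside 15.6%, and 5 (13.9%) and 3 (5.56%) with cyclic loess, beside 9.47%. On the processed signal in the order above they were 5 (13.9%) and 9 (16.7%) beside 12.6%, 9 of 36 and 11 (20.4%) beside 18.5%, and 11 (30.6%) and 12 (22.2%) beside 21.8%. With normexp they were 1 (2.78%) and 0 beside 3.34% at an offset of 50, and 5 (13.9%) and 5 (9.26%) beside 11.5% at 16. With the slide row as a block they were 3 (8.33%) and 6 (11.1%), beside 138 of 1257. With 1 array left out they were 0 to 6 and 2 to 7, beside 81 of 1192 to 160 of 1257. Nothing particular to either list is read from them.

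The methods speak of pairs of samples and do not say what paired them. Deviations of same-numbered arrays correlated at 0.28 and 0.25, the highest of the 9 correlations, and at -0.02, and those of other arrays at -0.36 to 0.17, so pairing by replicate number was neither taken as given nor excluded; surgery 3 correlated best with control 2. With the replicate block, 199 probes had an adjusted p under 0.05 (170 higher, 29 lower) and 2 chromatin regulator circRNAs (3.70%) were called, beside 8.75% of all listed.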
